A study of Saccharomyces cerevisiae with 6 samples.

Results

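The genes that encode the proteins of the cytosolic ribosome were examined in W303 budding yeast lacking SET2. Members were the protein-coding units named RPL or RPS with a number and an optional A or B, and those whose names begin with RPP0, RPP1 or RPP2. This rule took 138 of the 18646 units in the count table, of which 6692 were protein coding. One of them, RPP1 (YHR062C), fits the name but encodes a subunit of RNase P, the enzyme that trims tRNA precursors, and it was set apart from the other 137. These comprised 76 genes of the large subunit, 56 of the small subunit and 5 of the stalk. In 59 pairs, 118 genes were A and B copies, and 19 were single genes.

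RNA-seq was performed on 3 SET2 KO samples, whose labels give the genotype as set2::His3 in W303, and on 3 WT W303 samples with no deletion at SET2. The study's methods name a KanMX cassette instead of HIS3 for the deletion. All cultures were haploid laboratory yeast, each from its own colony, grown in rich YPDA medium to mid-log phase, and total RNA was depleted of rRNA before sequencing. The comparison asked which transcripts differ in amount when Set2, the enzyme that methylates lysine 36 of histone H3 on transcribed genes, is absent. In bulk RNA, a smaller number of transcribing cells and less RNA per cell cannot be told apart.

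Each ribosome holds a single copy of most ribosomal proteins, so their synthesis has to be matched. Much of that coordination in yeast occurs in transcription, through Rap1, Fhl1, Ifh1 and Sfp1, which act downstream of nutrient signalling by TORC1 and protein kinase A. Most of the genes survive as duplicate copies from an ancient whole-genome duplication, many of the encoded protein pairs are identical or nearly so, and introns are much more frequent among these genes than in the rest of the yeast genome.

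The counts summed to 9811206, 5135226 and 22536840 in SET2 KO samples 1, 2 and 3, and to 11192254, 10568372 and 15015735 in WT samples 1, 2 and 3. SET2 itself had 20, 9 and 32 reads in the SET2 KO samples, against 435, 298 and 459 in the WT samples, with log2 fold change -4.27 (standard error 0.19) and an adjusted P of 1.0e-06 in edgeR. The main test was the quasi-likelihood F test of edgeR, its P values adjusted by Benjamini-Hochberg over 5317 units, and a unit was called at an adjusted P below 0.05 together with a fold change above 1.5. With 3 samples against 3, an exact permutation test of a single gene cannot go below P = 0.1. SET2 KO 2, the smallest library, stood apart from SET2 KO 1 and 3 in the ribosomal protein genes. The numbers of members called and of members without overlap are given below with and without it. So are the median change and the share of counts, while most other values are given with it only.

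Duplicate genes are read apart only where their sequences differ, because the authors kept reads with a single position in the genome. The pairs shown illustrate this and return in the results: RPS22, with the largest change of the A to B ratio, RPL15, with the most unequal copies, RPL41, the shortest coding region, and RPL4, among the most alike. Each line gives the first coding bases of a gene, 5′ to 3′, from the RefSeq R64 genome (the sacCer3 build), and capitals mark the bases that differ between the copies.
RPS22A: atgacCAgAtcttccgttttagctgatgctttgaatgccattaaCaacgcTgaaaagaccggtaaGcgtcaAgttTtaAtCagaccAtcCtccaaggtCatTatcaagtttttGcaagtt
RPS22B: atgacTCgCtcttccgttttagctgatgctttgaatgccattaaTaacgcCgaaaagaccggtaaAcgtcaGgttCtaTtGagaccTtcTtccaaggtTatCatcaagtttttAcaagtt
RPL15A: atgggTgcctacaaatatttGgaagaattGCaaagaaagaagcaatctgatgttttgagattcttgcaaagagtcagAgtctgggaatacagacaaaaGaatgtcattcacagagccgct
RPL15B: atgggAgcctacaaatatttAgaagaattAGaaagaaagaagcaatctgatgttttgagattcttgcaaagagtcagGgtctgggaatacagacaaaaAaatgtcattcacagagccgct
RPL41A: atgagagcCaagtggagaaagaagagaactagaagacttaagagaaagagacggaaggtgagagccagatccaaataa
RPL41B: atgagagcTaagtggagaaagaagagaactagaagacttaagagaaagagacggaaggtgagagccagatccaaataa
RPL4A: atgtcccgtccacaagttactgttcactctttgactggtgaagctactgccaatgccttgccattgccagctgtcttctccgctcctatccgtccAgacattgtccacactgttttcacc
RPL4B: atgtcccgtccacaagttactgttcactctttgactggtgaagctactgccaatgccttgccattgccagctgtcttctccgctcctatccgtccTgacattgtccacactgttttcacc
Over the first 120 coding bases, RPS22A and RPS22B differed at 15, RPL15A and RPL15B at 6, and RPL4A and RPL4B at 1. For RPL41 the whole coding region of 78 bases is shown, and the copies differed at 1 base. Across the 59 pairs the coding sequences were between 46.4% and 99.4% identical, with a median of 93.2%. The lowest value belonged to RPP1A and RPP1B, which are related but distinct acidic stalk proteins. In 21 pairs the proteins were identical.

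A read was also lost to counting if it touched a second unit on either strand, since counting ignored strand and dropped reads shared by units. A countable position was therefore defined as a 76-nt stretch of a gene's exons, the length of a read, that lay outside every other unit and occurred once in the reference genome. Of the 138 members, 71 overlapped another unit in their exons, and for 11 less than 50% of the exon bases were free of overlap. All positions occurred once in 83 members, while 5 had less than 50% of theirs unique. The median member kept 94.3% of its positions.

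For 8 members fewer than 100 countable positions remained. RPS27A (YKL156W), a small subunit protein gene overlapped by RSM22 and YKL156C-A, and RPP1 had 0, RPL28 had 21, RPL39 had 25, RPL22A had 35, RPL43A had 37, RPL33A had 56 and RPS29A had 88. RPS27A had 3, 1 and 1 reads in the SET2 KO samples and 2, 2 and 5 in the WT samples, and RPL43A (YPR043W), overlapped by OPI11 and CUT427, had 4, 0 and 4 in SET2 KO and 0, 3 and 1 in WT. RPP1 had 3, 0 and 14 reads in SET2 KO and 5, 2 and 2 in WT. These 3 genes were not tested, and their counts do not give the amount of their transcripts. RPL28, the gene in which mutations give cycloheximide resistance, had only 7, 11 and 29 reads in SET2 KO and 9, 17 and 15 in WT. At the other end, 116 members had at least 1000 reads in every sample.

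**Figure D1:**
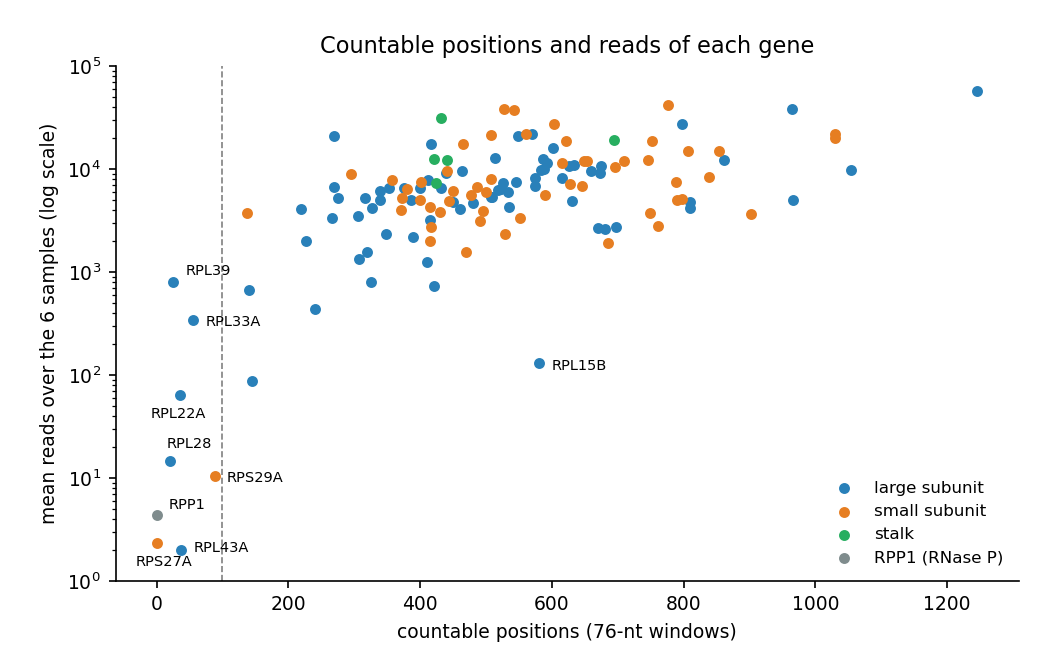
Countable positions of each of the 138 members (horizontal axis, number of 76-nt windows) against its mean number of reads over the 6 samples (vertical axis, log scale), coloured by subunit. The 8 named members left of the dashed line at 100 positions average under 1000 reads, and RPL15B is low as well despite 581 countable positions.

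Of the 135 members tested, 0 passed both thresholds, against 3.57% of all tested units (2.84% higher and 0.733% lower in SET2 KO). At an adjusted P below 0.05 alone, edgeR called 1 member, RPS22B, while 6.24% of all units were called, and DESeq2 called 2, RPS22B and RPS23A, with a background of 6.72%. DESeq2 placed 0 members past both thresholds. At an unadjusted P below 0.05 in edgeR there were 10 members, against 23.6% of all units.

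The fold changes of the members were small. Their median log2 fold change was -0.04, against -0.00 over all tested units and -0.01 over the protein-coding ones. The values ran from -0.53 (RPL39) to 0.40 (RPS22B), with 50 above and 85 below 0, and 113 lay within 0.2 of 0. The 95% interval of the fold change lay inside 1.5-fold in either direction for 121 members (89.6%), as it did for 65.1% of all units.

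**Figure D2:**
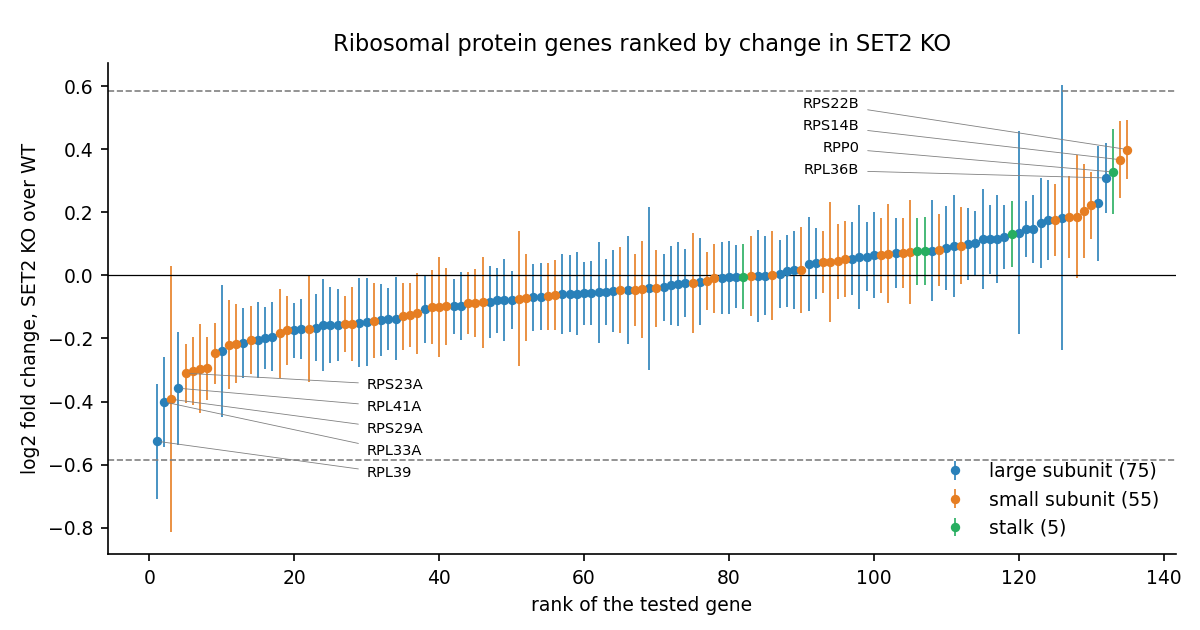
Log2 fold change of the 135 tested members, SET2 KO over WT, in rank order, with standard errors, coloured by subunit. Dashed lines mark a 1.5-fold change, and every point lies between them, from RPL39 at -0.53 to RPS22B at 0.40.

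The subunits had similar medians. Among 75 tested large-subunit genes the median log2 fold change was -0.04, and among 55 small-subunit genes it was -0.06. For the 5 stalk genes it was 0.08, and RPP0 was the highest of them. The A copies (57 tested) had a median of -0.05, the B copies (59) one of -0.03, and the single genes (19) one of -0.07. Below 0 were 35 of the A copies, 34 of the B copies and 16 of the single genes, against 2685 of the 5317 units tested. The 87 tested genes with an intron between coding exons had a median of -0.04, and the 48 without one had -0.05. By exon length, the median was -0.10 for the 21 members under 500 nt and -0.05 for the 24 members of at least 900 nt. These differences between groups of members were not tested.

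In the small subunit, the gene with the highest log2 fold change was RPS22B (YLR367W, chromosome XII, 856440 to 857368, plus strand), which encodes uS8, a protein that binds the central domain of 18S rRNA. Its exons overlapped no other unit, and all of its 371 positions were countable. Overlap within its intron was not examined. It had 368, 364 and 368 normalized CPM (counts per library total in CPM units, scaled by the TMM factors of edgeR) in SET2 KO, against 266, 302 and 267 in WT. The 3 SET2 KO samples were close together and above every WT sample. The fitted log2 difference was 0.40 ± 0.09 (standard error), with an adjusted P of 0.035 in edgeR. This is 1.32-fold, under the 1.5-fold threshold. Leaving out WT 2 kept the call (adjusted P = 0.012), but leaving out any other single sample did not, and the log2 fold change then stayed between 0.36 and 0.40, with adjusted P from 0.056 to 0.16. The other copy, RPS22A, had 1647, 1917 and 1669 normalized CPM in SET2 KO and 1717, 1946 and 1798 in WT, with overlapping groups and a log2 fold change of -0.06 (adjusted P = 0.78, standard error 0.11).

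RPS14B (YJL191W, chromosome X, 73754 to 74746) was next. It encodes uS11, a protein of the small-subunit platform that in yeast also binds its own transcript and represses RPS14B. It had 227, 302.9 and 230 normalized CPM in SET2 KO samples, against 197, 188 and 203 in WT samples. The groups did not overlap, but SET2 KO 2 stood well above the others. The fitted log2 difference was 0.37 ± 0.12 (standard error), with an adjusted P of 0.10 in edgeR. For RPS14A, the more abundant copy, the values were 1401, 1841 and 1375 in SET2 KO and 1345, 1323 and 1393 in WT, which overlap, with a log2 fold change of 0.18 (standard error 0.13). RPS14B, RPS22A and RPL39 lie side by side on chromosome X, where the ends of RPS14B and RPS22A overlap, and their log2 fold changes were 0.37, -0.06 and -0.53.

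Among the stalk genes, RPP0 (YLR340W, chromosome XII) encodes uL10, the base of the stalk to which the P1 and P2 proteins bind and which takes part in recruiting elongation factors. Of its 998 positions 432 were countable, and SUT707, XUT_12R-297 and YLR339C overlap it. RPP0 had 2580, 3353 and 2609 normalized CPM in SET2 KO and 2492, 2091 and 2221 in WT. Every SET2 KO sample was above every WT sample, with SET2 KO 2 the highest, and the fitted log2 difference was 0.33 ± 0.13 (standard error), with an adjusted P of 0.18 in edgeR. The acidic stalk genes RPP1A, RPP1B, RPP2A and RPP2B had log2 fold changes of 0.13, -0.00, 0.08 and 0.08, with overlapping groups in each.

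The large-subunit gene RPL36B (YPL249C-A, chromosome XVI) encodes eL36. SUT392 and YPL250W-A overlap its exons, and 140 positions were countable. It had 50.1, 57.2 and 64.8 normalized CPM in SET2 KO against 47.1, 46.6 and 45.7 in WT. The groups did not overlap, and the fitted log2 difference was 0.31 ± 0.11 (standard error), with an adjusted P of 0.13 in edgeR. Its partner RPL36A had 101, 101 and 109 in SET2 KO and 113, 113 and 108 in WT, with a log2 fold change of -0.10 (adjusted P = 0.53 in edgeR, standard error 0.09).

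**Figure D3:**
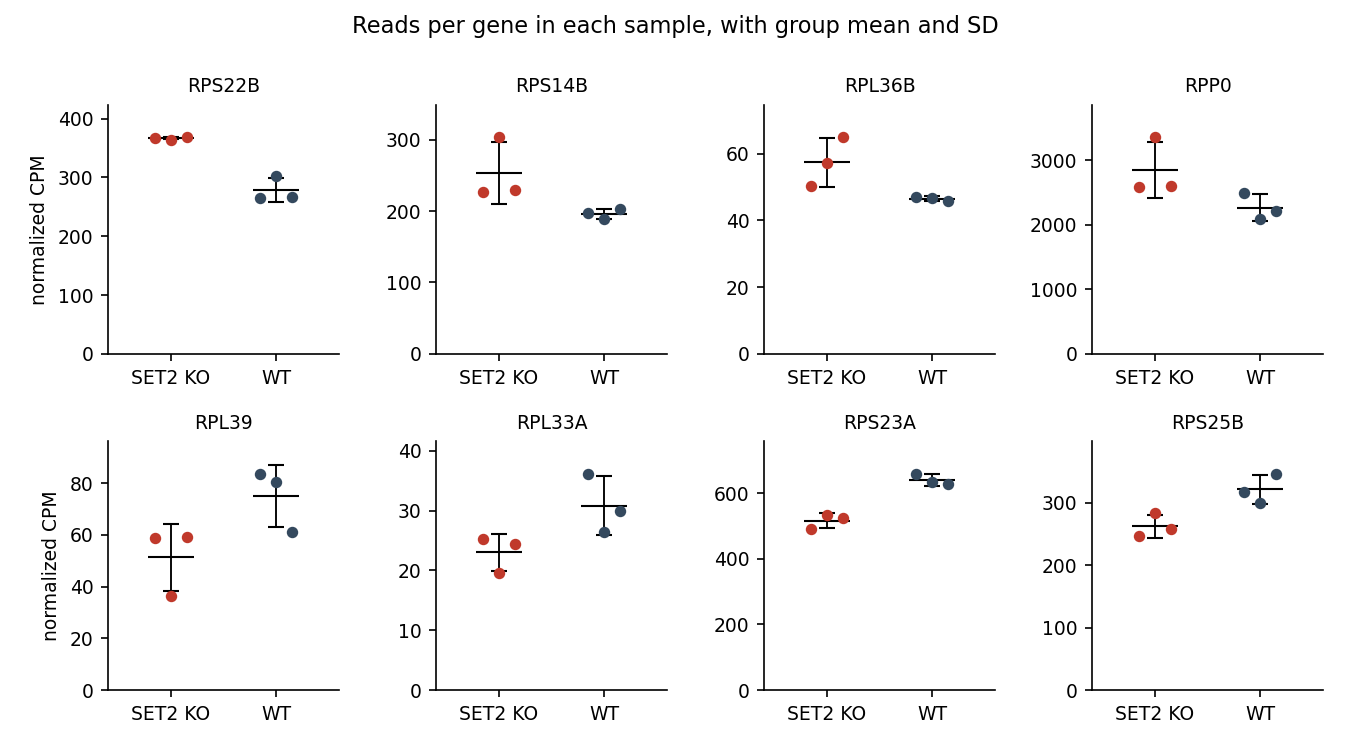
Normalized CPM of 8 members in each of the 3 SET2 KO samples (left, red) and the 3 WT samples (right, dark blue), with the group mean and SD in black. The SET2 KO samples of RPS22B, RPS14B, RPL36B and RPP0 are all above the WT samples, and those of RPL39, RPL33A, RPS23A and RPS25B are all below them. All 8 were taken from the members whose groups did not overlap, which were 12.6% of those tested, against 27.9% of all units.

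The lowest log2 fold changes, those of RPL39, RPL33A, RPS29A and RPL41A, belonged to genes with fewer than 100 countable positions or, for RPL41A, a short transcript of 345 nt. RPL39 (YJL189W, chromosome X, 75898 to 76610) encodes eL39, a small protein that lines the exit tunnel of the large subunit. BUD19 overlaps its exons, which left 25 countable positions. It had 58.7, 36.3 and 59.0 normalized CPM in SET2 KO and 83.8, 80.3 and 61.3 in WT. The groups did not overlap, although WT 3 came close to SET2 KO samples 1 and 3. The fitted log2 difference was -0.53 ± 0.18 (standard error), with an adjusted P of 0.12 in edgeR and a 95% interval from -0.93 to -0.12.

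RPL33A (YPL143W, chromosome XVI), which encodes eL33 and is overlapped by YPL142C, had 25.3, 19.5 and 24.4 normalized CPM in SET2 KO, against 36.2, 26.4 and 29.9 in WT. These groups did not overlap, and the fitted log2 difference was -0.40 ± 0.14 (standard error), with an adjusted P of 0.12 in edgeR. It passed an adjusted P of 0.05 only when WT 2 was left out (adjusted P = 0.032), where its log2 fold change was -0.49. Its copy RPL33B had 415 countable positions and no overlap of its exons with another unit. RPL33B had 241, 251 and 234 in SET2 KO and 263, 280 and 276 in WT, and these groups did not overlap either. Its log2 fold change was -0.17 (adjusted P = 0.26 in edgeR, standard error 0.09).

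RPL41A and RPL41B encode eL41, the smallest protein of the ribosome, with 25 residues. RPL41A had 1800, 1084 and 1451 normalized CPM in SET2 KO and 1635, 2140 and 1783 in WT. The fitted log2 difference was -0.36 ± 0.18 (standard error), with an adjusted P of 0.26 in edgeR. RPL41B had 608, 373 and 503 in SET2 KO and 475, 772 and 509 in WT (log2 fold change -0.24, standard error 0.21). In both copies the groups overlapped, SET2 KO 2 was the lowest of the 6 samples and WT 2 the highest. RPS29A, which encodes uS14, had 10, 4 and 13 reads in SET2 KO and 16, 6 and 14 in WT, too few for its log2 fold change of -0.39 (standard error 0.42) to be distinguished from 0.

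RPS23A (YGR118W, chromosome VII, 726919 to 727998) encodes uS12, a protein of the decoding center that affects the accuracy of translation. It had 492, 534 and 524 normalized CPM in SET2 KO and 660, 634 and 627 in WT. All SET2 KO samples lay below all WT samples, with little spread within either group. The log2 fold change was -0.31 (standard error 0.09) and did not pass in edgeR (adjusted P = 0.080) but did in DESeq2 (adjusted P = 0.033). RPS23B, which encodes the same protein, had 464, 602 and 515 in SET2 KO and 602, 571 and 521 in WT, overlapping, and a log2 fold change of -0.10 (standard error 0.12).

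Of the other small-subunit genes at the low end, RPS1A encodes eS1, near the mRNA exit of the small subunit. It had 1504, 1670 and 1606 normalized CPM in SET2 KO and 1888, 2139 and 1866 in WT, without overlap (log2 fold change -0.30, standard error 0.11, adjusted P = 0.13, edgeR). RPS25B, which encodes eS25, had 246, 283 and 257 in SET2 KO and 317, 300.0 and 346 in WT, also without overlap (-0.30, standard error 0.10, adjusted P = 0.11). RPS7B, for eS7, gave 253, 276 and 286 in SET2 KO and 325, 342 and 299.6 in WT (-0.25, standard error 0.10, adjusted P = 0.16). None of these passed in edgeR or DESeq2 with all samples, and RPS25B passed without WT 2 (log2 fold change -0.34, adjusted P = 0.0496, edgeR). RPS6A encodes eS6, a target of TORC1-dependent phosphorylation, and its groups overlapped, with 98.4, 117 and 122 in SET2 KO and 155, 150 and 110 in WT (-0.30, standard error 0.14).

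The other members among the 10 with the highest log2 fold change had groups that overlapped. RPS0B (uS2) had 1311, 2397 and 1609 normalized CPM in SET2 KO and 1718, 1443 and 1511 in WT, so that SET2 KO 2 was the highest and SET2 KO 1 the lowest of all 6, with a log2 fold change of 0.19. RPS8A (eS8) had 302, 416 and 284 in SET2 KO and 323, 261 and 284 in WT (log2 fold change 0.20). RPS9A (uS4, which affects decoding accuracy) had 152, 178 and 166 in SET2 KO and 155, 127 and 143 in WT (log2 fold change 0.22). In all 3 genes SET2 KO 2 was the highest of the 6 samples. RPL22A (eL22) had 51, 23 and 134 reads in SET2 KO and 46, 46 and 80 in WT (log2 fold change 0.23), and RPL28 (uL15) had a log2 fold change of 0.18 with a standard error of 0.42.

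Over all members, the groups did not overlap for 17 of 135 genes (12.6%), 5 higher and 12 lower in SET2 KO, against 27.9% of all units (14.1% higher, 13.8% lower). Beside those described above these were RPL18B among the higher, and RPL27B, RPL24A, RPS21B, RPS31 and RPL38 among the lower, with log2 fold changes between -0.20 and 0.15. Without SET2 KO 2, a choice made after the data were seen, it was 51 of 135 members (37.8%), against 41.5% of all units. Of these, 45 (33.3%) were lower in SET2 KO, against 20.6% of all units, and 6 (4.44%) were higher, against 21.0%. Since SET2 KO 2 was high in most members, as described below, leaving it out favours lower values in SET2 KO. The share without overlap rose over all units as well. This count was not made with any other sample left out.

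SET2 KO 2 was high in most of these genes. The median deviation of a member from its own mean over the 6 samples, on the log2 scale of CPM plus 0.5, was -0.10, 0.13 and -0.06 in SET2 KO samples 1, 2 and 3, and 0.02, 0.03 and 0.02 in WT samples 1, 2 and 3. Of the 135 members, 67 had their highest value in SET2 KO 2 and 58 their lowest in SET2 KO 1. The same was not counted over all units, so it cannot be said to be particular to these genes. The deviation of SET2 KO 2 was 0.05 for members under 500 nt and 0.18 for those of at least 900 nt, and its lowest deviations were those of RPL39 (-0.74), RPL41A (-0.57) and RPL41B (-0.49). The part of library size or of RNA length in these values was not tested.

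**Figure D4:**
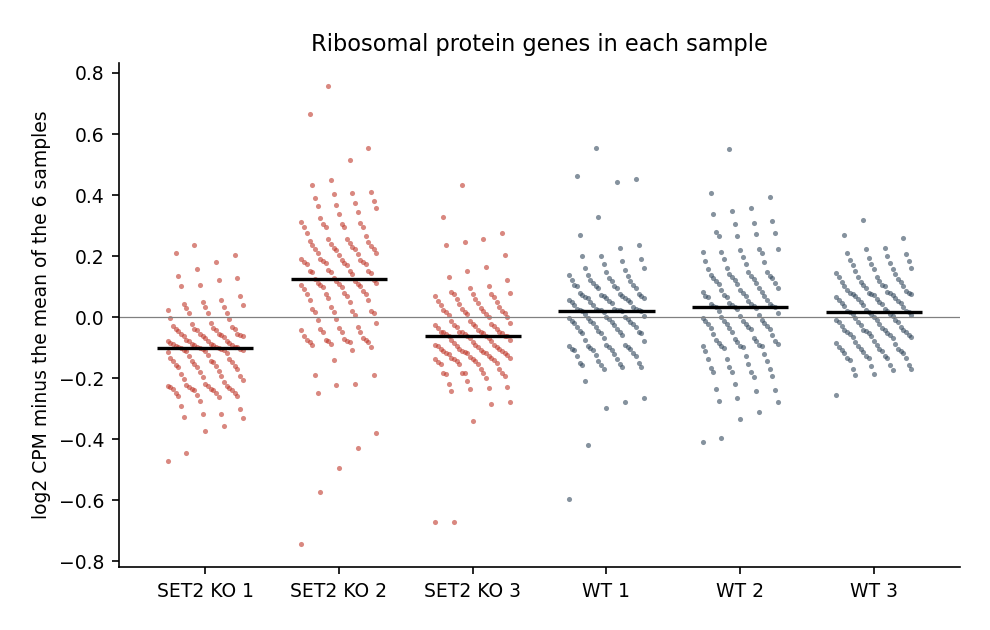
Deviation of each of the 135 tested members from its mean over the 6 samples (log2 CPM plus 0.5, vertical axis) in the SET2 KO samples (red) and WT samples (dark blue), with the median of each sample as a black line. The median is 0.13 in SET2 KO 2, -0.10 in SET2 KO 1 and -0.06 in SET2 KO 3, and between 0.02 and 0.03 in the WT samples.

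The members took 11.7%, 13.0% and 12.1% of the protein-coding counts in SET2 KO samples 1, 2 and 3, and 12.4%, 13.0% and 12.4% in WT samples 1, 2 and 3. SET2 KO 1 and 3 were the lowest of the 6 and SET2 KO 2 the highest, so the groups overlapped. The mean difference, SET2 KO minus WT, was -0.33 percentage points. Without SET2 KO 2 it was -0.70, the median log2 fold change was -0.11, and 112 of 135 members were below 0. With all samples 85 of 135 members were below 0, against 2685 of 5317 units. The share of all units below 0 without SET2 KO 2 is not given. Leaving out this sample again called 0 members past both thresholds (4.07% of all units), 1 at an adjusted P below 0.05 (RPS28B, log2 fold change -0.42, adjusted P = 0.043, edgeR), against 5.33% of all units, and 21 at an unadjusted P below 0.05, against 24.2%. Without SET2 KO 1 instead, the median log2 fold change was 0.01.

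The A and B copies of a pair can be compared within a sample. Levels were taken as normalized CPM per 1000 countable positions, for genes with at least 100 such positions. Among 54 pairs the A copy was the higher in 30 and the B copy in 24, and in 40 pairs the same copy was higher in all 6 samples. The median fold between copies was 1.67. In 22 pairs the copies differed over 2-fold, in 8 of them over 4-fold.

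The most unequal pair was RPL15, which encodes eL15. RPL15A had 1914, 2296 and 2231 normalized CPM per 1000 countable positions in SET2 KO and 2205, 2233 and 1941 in WT. RPL15B had 20.4, 13.0 and 19.2 in SET2 KO and 17.5, 16.9 and 17.1 in WT. RPL15A was 124-fold higher than RPL15B in both SET2 KO and WT, although RPL15B retained 581 countable positions and its 115, 38 and 255 reads in SET2 KO and 119, 100 and 151 in WT were counted from them.

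RPL35, for uL29 near the tunnel exit, was next, with RPL35A 14.9-fold higher than RPL35B in SET2 KO and 14.1-fold in WT. RPL7A, which encodes uL30, was 10.1-fold higher than RPL7B in SET2 KO and 10.4-fold in WT. In the small subunit RPS8A was 6.47-fold higher than RPS8B in SET2 KO and 5.998-fold in WT. RPS9 was the most unequal pair toward the B copy, with RPS9B 6.46-fold above RPS9A in SET2 KO and 7.28-fold in WT. Every one of these 5 pairs kept its higher copy in all 6 samples. The fold depends on which positions are taken as countable: with windows that also had no match within 2 mismatches elsewhere, chosen after the data were seen, RPL7A was 13.0-fold, RPS8A 7.20-fold and RPL15A 123-fold higher over all samples, and RPL35B kept too few positions to be compared.

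RPL4A and RPL4B, for uL4, whose coding sequences are 98.9% identical, could still be told apart at 548 and 507 positions. RPL4A had 3225 ± 262 normalized CPM per 1000 countable positions in SET2 KO and 2979 ± 175 in WT (SD, n = 3), and RPL4B had 809 ± 108 in SET2 KO and 826 ± 112 in WT. The A copy was higher in every sample.

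The most even pairs were RPL12, RPL23, RPL20, RPL37 and RPL42. RPL23A and RPL23B, which encode the identical uL14, had 1017 ± 132 and 1004 ± 112 normalized CPM per 1000 countable positions in SET2 KO and 969 ± 17.9 and 1009 ± 89.5 in WT (SD, n = 3). In none of these 5 pairs was the same copy higher in every sample, and for RPL20 and RPL42 the higher copy changed with the stricter definition of a countable position. Counting the copies of a pair together, the median level over the 54 pairs was 2019 in SET2 KO and 2113 in WT, and over the 17 single genes with a level it was 3117 in SET2 KO and 3290 in WT. Single genes such as RPP0 (6590 ± 1014 in SET2 KO, 5250 ± 474 in WT) and RPS31, which encodes a ubiquitin fusion (5565 ± 115 in SET2 KO, 6190 ± 731 in WT), were among the highest members.

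**Figure D5:**
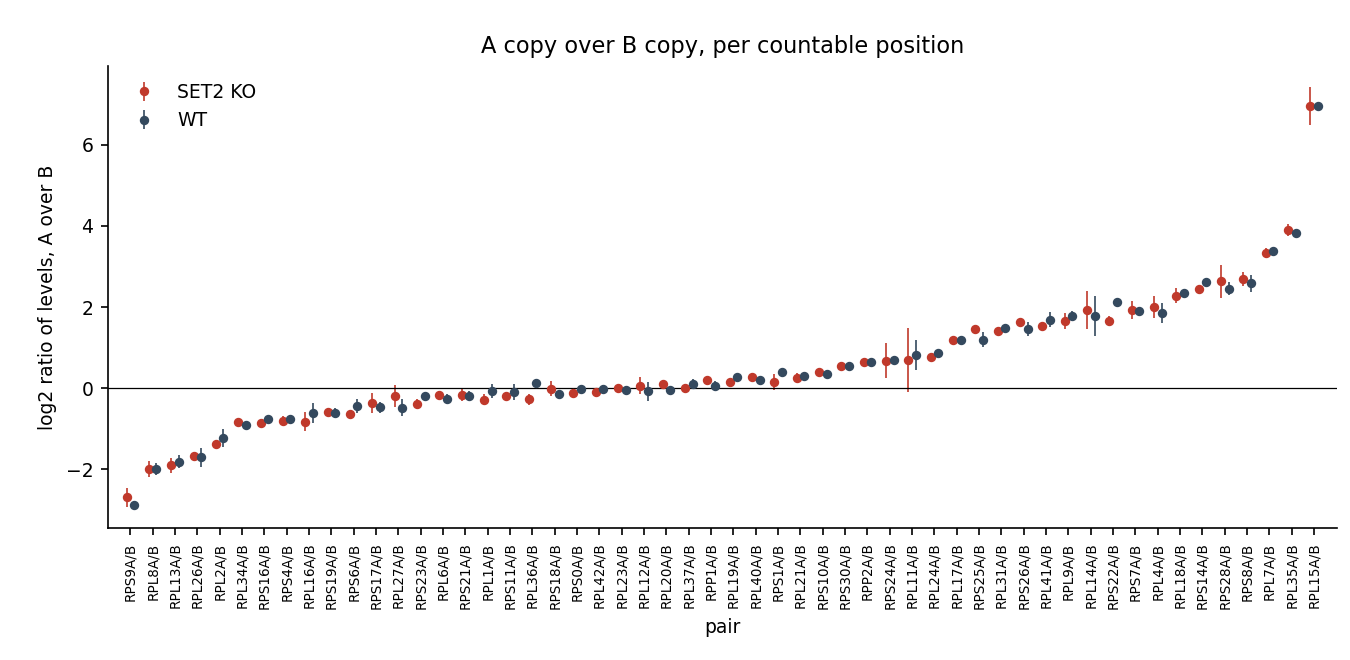
Log2 ratio of the level of the A copy to that of the B copy for the 54 pairs compared, in order, with SET2 KO in red on the left and WT in dark blue on the right of each pair (mean and SD, n = 3). Most pairs have nearly the same ratio in both groups, RPS22 is lower in SET2 KO (1.65 in SET2 KO, 2.11 in WT), and RPL15 is the highest at 6.96 in SET2 KO and 6.95 in WT.

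The change of the A to B read ratio between SET2 KO and WT does not depend on library size. Its size was under 0.2 on the log2 scale in 47 of the 57 pairs with both copies tested, with a median of 0.11. In limma on the log2 ratios, 1 pair, RPS22, passed an adjusted P below 0.05, which is 1.72% of the 58 A and B pairs of the table. Only 1 of those 58 pairs, NHP6, was not ribosomal, so the adjustment covers little beyond these pairs, and no rate for other genes can be set beside the count. The call was kept without SET2 KO 2 and lost when any other single sample was left out, and edgeR's test of the copies within a pair called 0, whereas 5 pairs had an unadjusted P below 0.05 in limma.

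RPS22A had 4.48, 5.26 and 4.54 reads per read of RPS22B in SET2 KO and 6.46, 6.44 and 6.73 in WT. The groups were well separated, and the log2 ratio changed by -0.46 (standard error 0.08), between -0.54 and -0.42 with each sample left out. RPS22B passed an adjusted P of 0.05 and RPS22A did not, as described above. The summed level of the pair was 4098 in SET2 KO and 3995 in WT. The encoded proteins of 130 residues differ at 1 position.

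For RPL36 the ratio of A to B reads was 2.02, 1.76 and 1.68 in SET2 KO and 2.39, 2.41 and 2.36 in WT, a log2 change of -0.40 (standard error 0.11). For RPS25 it was 2.53, 2.57 and 2.52 in SET2 KO and 1.91, 2.46 and 2.07 in WT, a change of 0.25 (standard error 0.10). Neither pair's groups overlapped. RPL27 (0.29, standard error 0.16) and RPL22 (0.40, standard error 0.23) had overlapping ratios, and RPL22A had few reads. In RPS14, where both copies had positive log2 fold changes, the ratio was 6.17, 6.08 and 5.98 in SET2 KO and 6.83, 7.03 and 6.87 in WT, again without overlap, with a change of -0.18 (standard error 0.07). The ratios of SET2 KO and WT did not overlap in 9 pairs, RPS22, RPL36, RPS14, RPS25, RPS23, RPL19, RPL20, RPL24 and RPS16, which are the only such pairs among the 58 of the table (15.5%).

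Genes that act on the ribosomal protein genes or on their products were read from lists. Of 15 transcriptional regulators, 13 were tested and 0 passed both thresholds in edgeR or DESeq2, with 1 at an unadjusted P below 0.05 in edgeR, against 23.6% of all units. Their median log2 fold change was -0.15. IFH1, the coactivator that joins Fhl1 at these promoters, had -0.25 (standard error 0.11, adjusted P = 0.19, edgeR), FHL1 had 0.09 and SFP1 -0.16. RAP1 and CRF1 had 0 reads in every sample, with 22 bases of RAP1 and 0 of CRF1 outside other units, so their transcripts could not be followed.

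Of 13 genes on a list of chaperones and loaders of ribosomal proteins, 0 passed both thresholds in edgeR or DESeq2, and the median log2 fold change was -0.19. At an unadjusted P below 0.05 there were 5 of 13, where 23.6% of all units were. None of the 5 passed after adjustment in edgeR, and their log2 fold changes were negative: TSR2 (-0.40, adjusted P = 0.065, edgeR), which escorts eS26, SYO1 (-0.37), which carries uL18 and uL5 into the nucleus, LOC1 (-0.34), TSR4 (-0.32) and PUF6 (-0.31). Of 9 methyltransferases that modify ribosomal proteins 0 passed in either tool, the median was -0.19, and 3 of 9 had an unadjusted P below 0.05 in edgeR, against the same 23.6% of all units. These were RMT2 (-0.36), SFM1 (-0.27) and RKM5 (0.36). The medians of these 3 lists were lower than the -0.04 of the ribosomal protein genes, which was not tested.

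Among 10 elongation factor genes 9 were tested, with a median log2 fold change of -0.04. HEF3 was the one past both thresholds in edgeR and in DESeq2, where 3.57% of all units passed both in edgeR. At an unadjusted P below 0.05 in edgeR there were 3 of 9, against 23.6% of all units. These were HEF3, CAM1 (log2 fold change 0.38) and EFT2 (-0.27). HEF3 is the weakly expressed copy of YEF3, the gene of the fungal elongation factor eEF3. It had 97, 48 and 229 reads in SET2 KO and 69, 69 and 91 in WT, or 9.86 ± 0.259 normalized CPM in SET2 KO and 6.22 ± 0.490 in WT (SD, n = 3). The fitted log2 difference was 0.68 ± 0.14 (standard error), with an adjusted P of 0.021 in edgeR. The call was lost without SET2 KO 1, SET2 KO 3, WT 1 or WT 3, where the adjusted P was between 0.084 and 0.12, and in libraries thinned to equal totals, where the log2 fold change was 0.57, under the 1.5-fold threshold, and the adjusted P was 0.16. YEF3 had 18024 ± 1098 normalized CPM in SET2 KO and 20923 ± 1165 in WT (-0.22, standard error 0.12, adjusted P = 0.32). HYP2 had 0 bases outside other units and 0 reads. For 9 ribosome-associated proteins, 0 passed in edgeR or DESeq2, 0 had an unadjusted P below 0.05, and the median was -0.04.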

How the data were processed

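Read counts per unit were taken as deposited. The authors mapped 76-nt single reads to sacCer3 with TopHat2 2.1.0, removed reads with several genomic positions or low mapping quality, and deposited whole-number counts per transcriptional unit, without regard to strand, dropping reads shared by units. The FPKM values deposited by the authors served only to check that unit lengths equalled exon lengths, which held for 138 of 138 members. The authors also deposited DESeq2 fold changes and P values, which were not used. No other per-sample columns were present (0).

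Counts were tested with edgeR 4.0.16 (R 4.3.3): library sizes were scaled by TMM, low units removed by filterByExpr, and 5317 units fitted by glmQLFit and tested by glmQLFTest, without the replicate number as a term. Standard errors were derived from each log2 fold change and its F statistic. DESeq2 1.42.0 was an alternative. The log2 A to B read ratios, with 0.5 reads added, were tested with limma 3.58.1. Levels and figures were made with Python 3.11.15, numpy 2.4.6, pandas 2.3.3, matplotlib 3.10.9 and Biopython 1.88. The fits were tested on simulated data. Coordinates are those of sacCer3, and the units of all 17 chromosomes lay within the R64 reference.

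Named genes were the 10 members with the highest and the 10 with the lowest log2 fold change, the 5 most and 5 least unequal pairs, the 5 pairs with the largest ratio change, members not tested, SET2, and list genes past the thresholds. Others were named after their values were seen. Members and lists were chosen with earlier results of these data known. Each of the 5 lists was matched by name or RefSeq locus tag. Total counts ran from 5135226 to 22536840 per sample. Samples are separate colonies, and the P values weigh the difference between the groups against the spread between colonies of a group.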

Additional observations from a re-analysis of the deposited data

How the results depend on the processing

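Of 316 refits of the 20 named members under the alternatives, 306 kept their side of an adjusted P of 0.05, 7 lost it and 3 gained it, and 0 reversed a call. The 7 losses were all of RPS22B. No setting placed a member past both thresholds. The number of members at an adjusted P below 0.05, 1 in edgeR, was 2 in DESeq2, 0 when libraries were thinned to equal totals, and between 0 and 3 with each sample left out. The number of pairs with a changed A to B ratio, 1 in limma, was 0 in thinned libraries, 0 in edgeR's test within pairs, and between 0 and 1 with each sample left out. The number of members whose groups did not overlap was 17 (12.6%, against 27.9% of all units). Without SET2 KO 2 it was 51 (37.8%, against 41.5% of all units). The median log2 fold change stayed between -0.11 and 0.01 over the samples left out. Other scalings moved the median of all units by at most 0.02. Removing a trend with exon length, chosen after the data were seen, gave a median of -0.06. The cause of these changes was not tested.

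The replicate number was not taken to pair the samples. Deviations from the group mean correlated at -0.32, -0.37 and -0.13 between same-numbered samples of the 2 groups. Between differently numbered samples the correlations ran from -0.11 to 0.33. The deviations within a group of 3 sum to 0, which constrains these values, so they cannot decide whether samples were paired. With the replicate number as a block, 0 members were at an adjusted P below 0.05 (RPS22B, 0.17, edgeR) and 0 were past both thresholds. In that setting 0 pairs were past the threshold of the ratio, and HEF3 lost its call (adjusted P = 0.12, edgeR).

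Few reads limit the 8 members with under 100 countable positions, and W303 sequence was not compared with the reference, so the numbers of countable positions are approximate. A countable position takes no account of reads with mismatches, and levels per position vary with its definition.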
